A study of Mus musculus with 14 samples.

Results

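The genes of major histocompatibility complex (MHC) class I were followed in the mouse cerebral cortex after cerebral venous sinus thrombosis (CVST), a clot in the large veins that drain the brain. The members were 9 genes matched by symbol in the count table: the classical heavy chains H2-K1 and H2-D1, the nonclassical heavy chains H2-Q4, H2-Q6, H2-Q7, H2-T22, H2-T23 and H2-M3, and the light chain B2m. They were 9 of 55359 genes in the table, and all 9 were among the 16918 genes that passed the filter on low counts. RNA was sequenced from cortex of both hemispheres in 14 mouse samples: 4 from sham mice, 5 from mice at 2 d after CVST (CVST-2d) and 5 from mice at 7 d (CVST-7d). The labels give no strain, sex or age of the mice and no collection time of the sham samples. They number the samples without saying that each is a separate animal, so p-values measure the spread between these samples, which may be technical.

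A class I molecule is a membrane-bound heavy chain held together with beta-2 microglobulin, the product of B2m, and with a short peptide. Peptides cut by the proteasome are carried into the endoplasmic reticulum by the transporter TAP and loaded there, and the finished complex shows the peptide to CD8 T cells at the cell surface. The classical chains present to CD8 T cells, whereas the nonclassical chains serve more specialised receptors: H2-T23 (Qa-1) is read by receptors of natural killer cells, and H2-M3 presents peptides that begin with formyl-methionine. In healthy brain, class I levels are low in most cells, and interferons raise them in microglia, endothelium and other cells.

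The promoters are shown first because the class I genes are known for a shared order of short motifs upstream of the gene, through which interferon and NF-kB signals act on them. RefSeq promoter windows (build GRCm38.p6, 250 bases before to 50 after the start) were found for all 9 members. The stretches below lie before the annotated start, are written 5′ to 3′ on the strand of the gene, and carry motif matches in capitals. They belong to the 4 genes that were higher at 7 d and to H2-T22, which had the smallest fold change. The positions are chr17:34000334-34000467 (minus strand) for H2-K1, chr17:35262914-35263053 (plus) for H2-D1, chr17:35379434-35379573 (plus) for H2-Q4, chr2:122147518-122147657 (plus) for B2m and chr17:36042824-36042963 (minus) for H2-T22.
H2-K1: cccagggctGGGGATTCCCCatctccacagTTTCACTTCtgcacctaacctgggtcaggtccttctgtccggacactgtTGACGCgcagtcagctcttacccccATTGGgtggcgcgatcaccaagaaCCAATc
H2-D1: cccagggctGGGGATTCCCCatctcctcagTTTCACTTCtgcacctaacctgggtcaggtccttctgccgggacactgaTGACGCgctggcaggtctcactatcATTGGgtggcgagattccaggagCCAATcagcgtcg
H2-Q4: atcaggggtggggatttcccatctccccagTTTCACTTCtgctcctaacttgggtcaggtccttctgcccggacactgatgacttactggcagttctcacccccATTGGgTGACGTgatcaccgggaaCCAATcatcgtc
B2m: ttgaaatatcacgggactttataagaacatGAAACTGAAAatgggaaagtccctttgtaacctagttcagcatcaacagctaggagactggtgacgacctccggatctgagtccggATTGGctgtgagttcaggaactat
H2-T22: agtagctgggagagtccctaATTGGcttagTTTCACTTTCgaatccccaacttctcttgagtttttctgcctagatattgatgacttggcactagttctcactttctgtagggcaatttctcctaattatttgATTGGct

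Motifs were searched on both strands over the 300 bases of each window. The interferon-stimulated response element, bound by interferon regulatory factors, was searched as GAANNGAAA and in a longer form that begins with GAAA in place of GAA, and both forms can occur in a window. All 9 members held one or the other, 6 the first (H2-K1, H2-D1, H2-Q4, H2-Q6, H2-Q7 and H2-M3) and 3 the second (B2m, H2-T22 and H2-T23), against 10.4% of all 32851 windows. On the gene's strand it reads TTTCACTTC in H2-K1 and GAAACTGAAA in B2m, as in the stretches above. The first run of capitals in the stretches of H2-K1 and H2-D1, a kappa B sequence bound by NF-kB proteins, was present without a change of letters in H2-K1, H2-D1 and H2-Q6 and in 0.0304% of all windows. CCAAT, the motif of the NF-Y factor, was present in 9 of 9 members and in 37.4% of windows. TGACGC was present in 4 members and TGACGT in 3, against 7.4% and 7.51% of windows. Over the 250 bases before the start, the promoters of H2-D1 and H2-Q6 were 82.2% identical and those of H2-K1 and B2m 45.1%. A match of letters is a description and not a binding site.

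Levels are given in CPM, the count of a gene scaled to the library's total with TMM factors, which correct for differences in composition. The libraries differed within a group in genes outside class I. The summed level of 12 microglia markers was 459 CPM in CVST-2d sample 5, against 772 to 1113 CPM in the other CVST-2d samples. It was 549 CPM in CVST-7d sample 2, against 870 to 1854 CPM in the other CVST-7d samples. Where leaving out either library changed a call, the value without it is given. Both libraries were also the lowest of their group in H2-K1 and B2m, so leaving either out raises the group's mean of these genes. Total counts over genes ran from 14.7 M in the smallest library to 20.8 M in the largest. The tissue was checked with 10 neuronal markers, all of which passed the filter and summed to 6558 to 10489 CPM over the 14 samples. No other brain region was compared, so this check cannot tell cortex from other neuronal tissue.

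At 7 d after CVST, 4 of the 9 class I genes were higher than in sham: H2-K1, H2-D1, H2-Q4 and B2m rose 3.18- to 4.09-fold. None was lower, and over all genes tested 4.44% were called at 7 d, 3.61% higher and 0.833% lower. For 6 of 9 members every CVST-7d sample lay above every sham sample, beside 5.8% of all genes. H2-Q6, among the 6, had 0 to 10 counts in sham and 14 to 67 at 7 d. It passed the filter on low counts only through its CVST-7d samples, so its separation is a description. At 2 d H2-K1, H2-D1, H2-Q4 and B2m lay 1.65- to 1.90-fold above sham, but 0 of 9 members passed edgeR's test, beside 3.95% of all genes (2.98% higher and 0.969% lower). H2-Q6 and H2-Q7 had fold changes of 8.82 and 3.79 at 7 d with wide errors and did not pass. H2-T22, H2-T23 and H2-M3 had the smallest fold changes at 7 d, 1.37 to 1.80. All 9 log2 fold changes were above 0 in each of the 3 comparisons. Of 12 tested class I relatives outside the members, 6 were above 0 at 2 d. In bulk cortex, a change in the number of cells that express a gene and a change in its RNA per cell cannot be told apart.

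**Figure D1:**
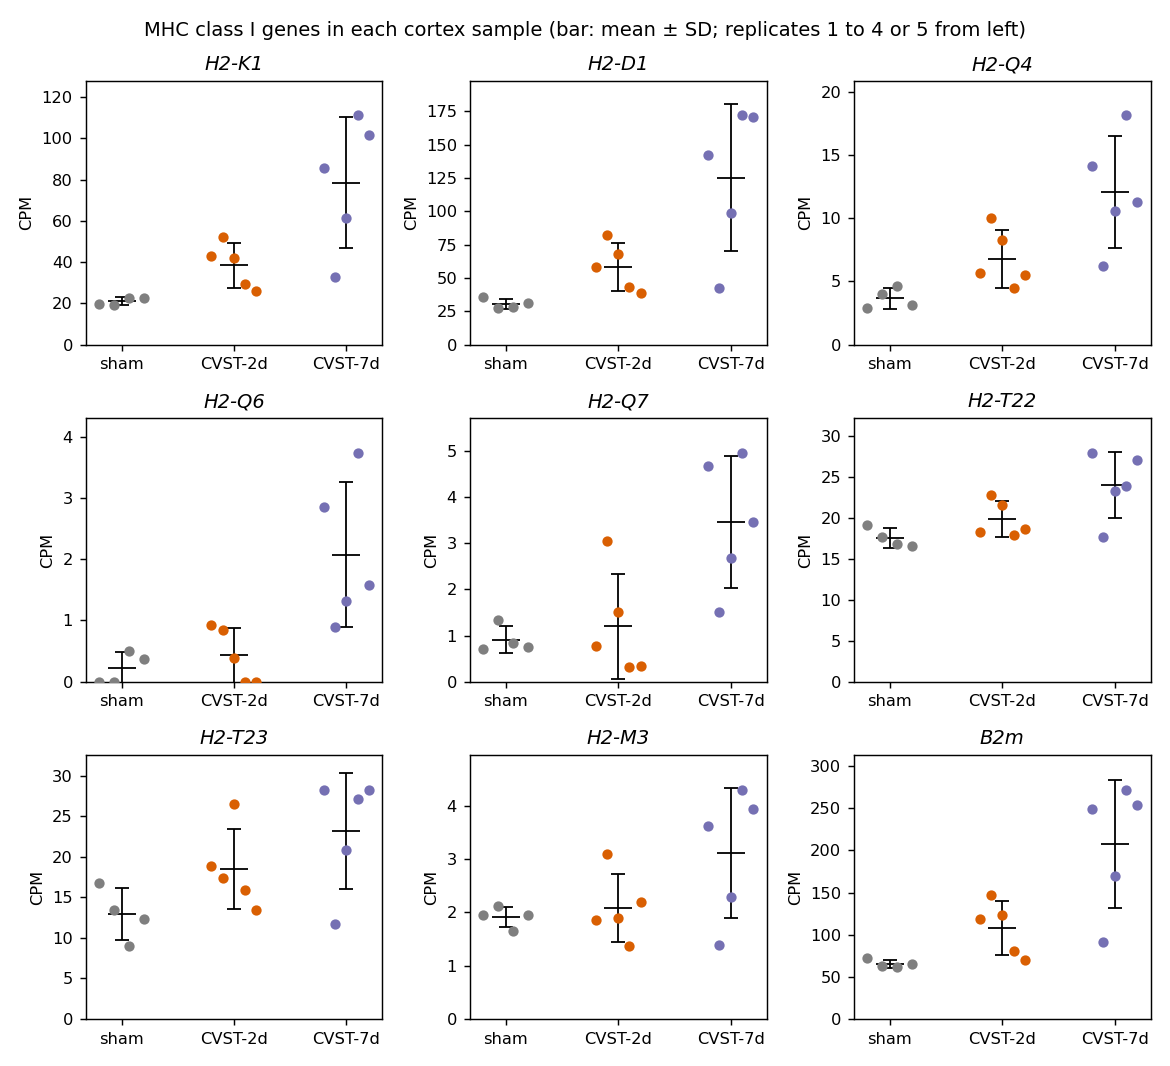
Level in CPM (y axis, linear from 0, a separate scale per gene) of each of the 9 class I genes in every sample of the 3 groups, with points for samples and bars for mean ± SD. The 5 CVST-7d samples of H2-K1, H2-D1, H2-Q4, H2-Q6, H2-Q7 and B2m all lie above the sham samples, with CVST-7d sample 2 lowest.

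H2-K1 (ENSMUSG00000061232), a classical heavy chain, measured 19.7, 19.0, 22.7 and 22.7 CPM in sham samples 1 to 4. It measured 42.8, 52.0, 41.9, 29.4 and 25.8 CPM in CVST-2d samples 1 to 5 and 85.7, 32.7, 61.1, 111 and 102 CPM in CVST-7d samples 1 to 5. All CVST samples lay above all sham samples, and CVST-7d sample 2 lay within the CVST-2d range while the other 4 CVST-7d samples lay above it. The group means were 21.0 ± 1.97 (SD, n = 4), 38.4 ± 10.7 (SD, n = 5) and 78.4 ± 31.8 CPM (SD, n = 5). The log2 fold change against sham was 0.87 ± 0.29 at 2 d (SE, adjusted p = 0.108, edgeR's quasi-likelihood test) and 1.90 ± 0.30 at 7 d (adjusted p = 0.00747). Without CVST-2d sample 5 the 2 d difference passed (0.98, adjusted p = 0.045 by edgeR), and it also passed without CVST-7d sample 2 (adjusted p = 0.0326), which enters through the shared estimate of the spread. Without CVST-2d sample 2 the 2 d difference was 0.73 and did not pass (adjusted p = 0.222 by edgeR). With 1 library left out, adjusted p ran from 0.0326 to 0.24 by edgeR.

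H2-D1 (ENSMUSG00000073411), the other classical heavy chain, measured 35.7, 27.8, 28.1 and 31.0 CPM in sham. It measured 58.1, 82.2, 68.1, 43.3 and 39.0 CPM at 2 d and 142, 42.3, 98.8, 172 and 171 CPM at 7 d, in sample order. Neither CVST group overlapped sham, and the order of the samples was like that of H2-K1, with samples 4 and 5 lowest at 2 d and sample 2 lowest at 7 d. The mean rose from 30.6 ± 3.67 CPM in sham (SD, n = 4) to 125 ± 55.0 CPM at 7 d (SD, n = 5), and the fitted log2 difference was 2.03 ± 0.34 (SE) with an adjusted p of 0.00916 by edgeR. At 2 d the mean was 58.1 ± 17.8 CPM (SD, n = 5) and the log2 fold change 0.92 ± 0.33 (SE, adjusted p = 0.125 by edgeR). The 2 d difference passed without CVST-7d sample 2 (adjusted p = 0.0303 by edgeR) and not without CVST-2d sample 5 (adjusted p = 0.06). With 1 library left out, adjusted p ran from 0.0303 to 0.264 by edgeR.

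B2m (ENSMUSG00000060802), the light chain that pairs with class I heavy chains, measured 71.8, 62.5, 61.6 and 65.0 CPM in sham. It measured 118, 147, 124, 80.7 and 69.7 CPM at 2 d and 250, 91.7, 170, 272 and 254 CPM at 7 d, in sample order. CVST-2d sample 5 lay inside the sham range, and all 5 CVST-7d samples lay above it. The log2 fold change was 0.73 ± 0.28 at 2 d (SE, adjusted p = 0.146 by edgeR) and 1.67 ± 0.28 at 7 d (adjusted p = 0.00918). With 1 library left out the 7 d value ran from 1.55 to 1.87 (adjusted p = 0.000539 to 0.0418 by edgeR).

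H2-Q4 (ENSMUSG00000035929), a nonclassical chain of the Q region, measured 2.88, 4.0, 4.60 and 3.13 CPM in sham. It measured 5.64, 9.98, 8.25, 4.46 and 5.50 CPM at 2 d and 14.1, 6.21, 10.5, 18.1 and 11.3 CPM at 7 d, in sample order. CVST-2d sample 4 lay inside the sham range and the other CVST samples above it. The log2 fold change was 0.89 ± 0.30 at 2 d (SE, adjusted p = 0.108 by edgeR) and 1.72 ± 0.30 at 7 d (adjusted p = 0.00956). At 2 d it passed neither without CVST-2d sample 5 (adjusted p = 0.0661 by edgeR) nor without CVST-7d sample 2 (adjusted p = 0.0625). With 36.4% of the words of 50 bases in its annotated transcripts also found in transcripts of other genes, its count can include or lose reads of near copies.

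The pair H2-Q6 and H2-Q7, which encode Qa-2 antigens, were the least abundant members. H2-Q6 (ENSMUSG00000073409) had 0, 0, 10 and 7 counts in sham samples 1 to 4, 17, 18, 6, 0 and 0 in CVST-2d samples 1 to 5 and 41, 14, 23, 67 and 30 in CVST-7d samples 1 to 5. A count of 0 in these libraries allows up to 3 counts, or 0.165 to 0.182 CPM, as counting error alone. H2-Q6 was seen in every CVST-7d sample, with a log2 fold change of 3.14 ± 0.97 against sham (SE, adjusted p = 0.0861 by edgeR). H2-Q7 (ENSMUSG00000060550) lay at 0.706 to 1.33 CPM in sham, 0.330 to 3.05 at 2 d and 1.52 to 4.97 at 7 d, so that the 7 d samples were above the sham range and the 2 d samples on both sides of it. Its log2 fold change at 7 d was 1.92 ± 0.57 (SE, adjusted p = 0.0744 by edgeR), and the difference passed without CVST-2d sample 2 (adjusted p = 0.0312), CVST-2d sample 5 (adjusted p = 0.0473) or CVST-7d sample 2 (adjusted p = 0.0431). With another library left out, adjusted p for H2-Q7 reached 0.192 by edgeR. Since 35% and 26.5% of their transcripts' words of 50 bases occur in other genes, the pair was also counted as 1 feature. The sum gave 2.28 ± 0.61 at 7 d (SE, adjusted p = 0.0476 by edgeR) and 0.54 ± 0.60 at 2 d (adjusted p = 0.645).

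The remaining nonclassical chains had the smallest fold changes at 7 d. H2-T22 (ENSMUSG00000056116), a ligand of some gamma-delta T cells, lay at 16.5 to 19.2 CPM in sham, 18 to 22.9 at 2 d and 17.7 to 28.0 at 7 d, with CVST-7d sample 2 inside the sham range. Its log2 fold change at 7 d was 0.45 ± 0.13 (SE, adjusted p = 0.0561 by edgeR), or 0.55 without CVST-7d sample 2 (adjusted p = 0.0074). With 1 library left out, adjusted p ran from 0.0074 to 0.162 by edgeR. H2-T22 shared the largest part of its transcripts with other genes, 53.5% of words of 50 bases, and 31.2% of its words were found in H2-T10.

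H2-T23 (ENSMUSG00000067212) lay at 9.06 to 16.8 CPM in sham, 13.5 to 26.6 at 2 d and 11.7 to 28.3 at 7 d. Sham and CVST ranges overlapped at both times, and the log2 fold change at 7 d was 0.85 ± 0.26 (SE, adjusted p = 0.0812 by edgeR), or 1.02 without CVST-7d sample 2 (adjusted p = 0.011). With 1 library left out, adjusted p ran from 0.011 to 0.23 by edgeR. H2-M3 (ENSMUSG00000016206) lay at 1.65 to 2.12 CPM in sham, 1.38 to 3.09 at 2 d and 1.39 to 4.30 at 7 d, and CVST-7d sample 2 was below the sham range. Its log2 fold change at 7 d was 0.70 ± 0.31 (SE, adjusted p = 0.225 by edgeR), and it did not pass without any 1 of the 14 libraries.

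**Figure D2:**
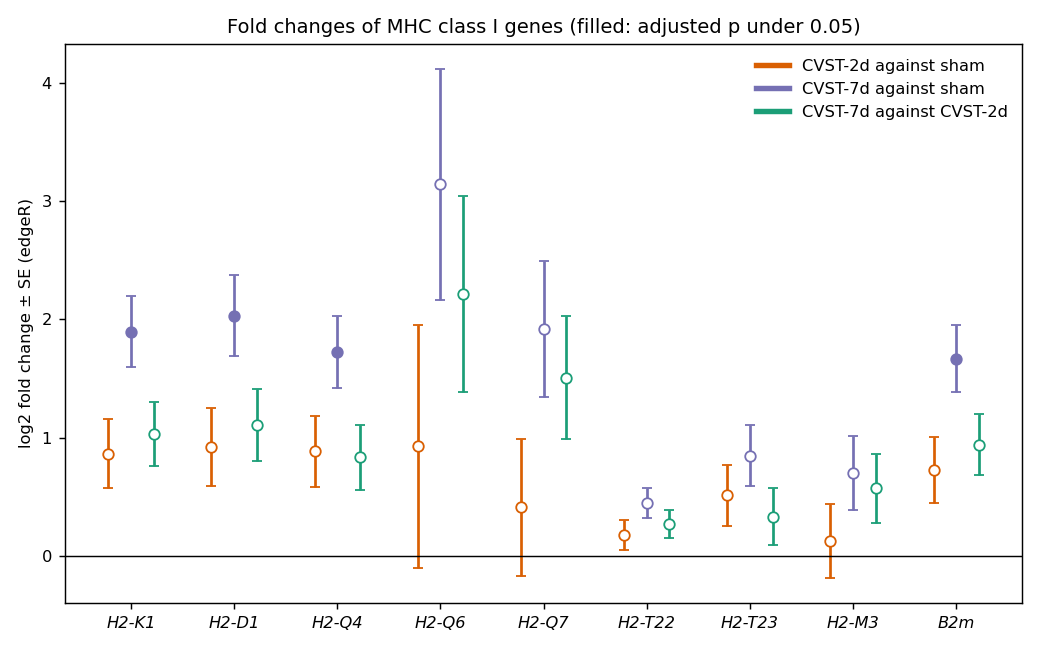
Log2 fold change (y axis) of each class I gene in the 3 comparisons, with bars for the standard error of the edgeR fit and filled points for adjusted p under 0.05. Filled points are found only for CVST-7d against sham, in H2-K1, H2-D1, H2-Q4 and B2m, and H2-Q6 has the widest error.

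The median log2 fold change of the 9 members at 7 d was 1.72, and that of all genes -0.01. DESeq2 called 8 of 9 at 7 d, all but H2-M3, where it called 6.16% of all genes higher. The 8 include H2-Q6, which passed the filter on low counts only through its CVST-7d samples. At an unadjusted p under 0.05, 4 of 9 members and 12.3% of all genes were higher at 2 d. DESeq2 called 3 members at 2 d (H2-K1, H2-D1 and H2-Q4), where it called 6.35% of all genes higher. The members' median log2 fold change at 2 d was 0.73, and 2 of 9 (H2-K1 and H2-D1) had no overlap with sham, beside 5.65% of all genes. The comparisons with sham share the 4 sham samples.

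Between 2 d and 7 d, the members' fold changes were above 0 without passing the test. By edgeR 0 of 9 were called, beside 2.8% of all genes, 1.54% higher and 1.25% lower at 7 d than at 2 d. At an unadjusted p under 0.05, 7 of 9 members and 10.3% of all genes were higher. DESeq2 called 4 members (H2-K1, H2-D1, H2-Q4 and B2m), where it called 3.89% of all genes higher. The log2 differences were 1.03 ± 0.27 for H2-K1 (SE, adjusted p = 0.0548 by edgeR), 1.11 ± 0.30 for H2-D1 (adjusted p = 0.0655) and 0.94 ± 0.26 for B2m (adjusted p = 0.065). Without CVST-7d sample 2, these 3 genes and H2-Q4 passed (adjusted p = 0.00937 to 0.0484 by edgeR). Without CVST-2d sample 2, H2-K1 and H2-Q7 passed. With another library left out, adjusted p reached 0.148 for H2-K1, 0.164 for H2-D1 and 0.161 for B2m by edgeR. No member had all CVST-7d samples above all CVST-2d samples, since CVST-7d sample 2 lay within the CVST-2d range or below it, while 2.28% of all genes were so separated.

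The calls of H2-K1, H2-D1, H2-Q4 and B2m at 7 d held in all 14 fits that each left out 1 library, with adjusted p of at most 0.0365, 0.0418, 0.0454 and 0.0418 by edgeR. None of these calls held with the replicate number as a block (adjusted p = 0.0669 for H2-D1 and 0.0647 for B2m by edgeR).

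Levels can be compared between members only per transcript length, for which the deposited FPKM (fragments per kilobase of transcript, scaled to depth) were used. In sham, B2m had the highest level at 105 ± 5.71 FPKM (SD, n = 4), followed by H2-K1 at 28.6 ± 3.14 and H2-D1 at 16.9 ± 1.73. The ranges of these 3 did not overlap. By counts the order of the 2 classical chains was the reverse. H2-D1 had 1.24 to 1.81 times the counts of H2-K1 in sham, 1.36 to 1.63 at 2 d and 1.29 to 1.68 at 7 d. Their order by FPKM therefore rests on the transcript lengths used, and H2-K1 is a gene entry while H2-D1 is an assembled locus. H2-T23 (9.82 ± 2.41 FPKM) and H2-T22 (9.45 ± 0.716) overlapped each other, as did H2-Q4 (2.16 ± 0.494) and H2-M3 (1.57 ± 0.149), and then H2-Q7 (0.393 ± 0.163) and H2-Q6 (0.117 ± 0.139). The order of the means was the same in CVST-2d and CVST-7d. At 7 d B2m measured 349 ± 130 FPKM, H2-K1 108 ± 46.5 and H2-D1 72.6 ± 32.8 (SD, n = 5). The FPKM of a gene per CPM varied between samples by a coefficient of variation of 2.34% to 8.43% for 8 members and of 25.7% for H2-Q7, whose FPKM is therefore less certain.

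**Figure D3:**
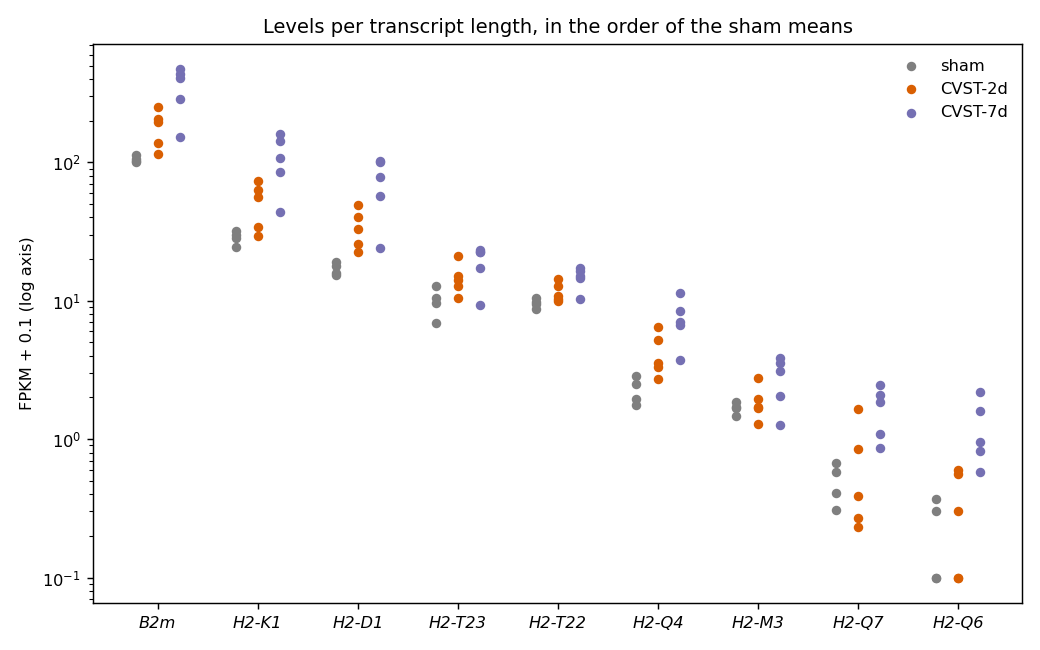
Level per transcript length (y axis, FPKM + 0.1 on a log axis) of the 9 class I genes in every sample, ordered by their sham means, with 1 point per sample. In the mean FPKM of each group B2m is highest and H2-Q6 lowest, with the samples of H2-Q6 and H2-Q7 overlapping. H2-K1 lies above H2-D1 in the mean FPKM of each group, although H2-D1 had more counts in every sample.

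The level of the heavy chains followed that of the light chain. The summed FPKM of the 8 heavy chain genes was 0.617 to 0.682 of the B2m FPKM in sham, 0.621 to 0.673 at 2 d and 0.585 to 0.686 at 7 d. The 3 ranges overlapped throughout, while the sum itself went from 66.5 to 71.7 FPKM in sham to 93.1 to 319 FPKM at 7 d. The makeup of the heavy chain sum differed between groups. H2-K1 and H2-D1 together made up 62.1% to 68.9% of it in sham, 66.5% to 75.8% at 2 d and 72.7% to 82.4% at 7 d, so that sham and 7 d did not overlap. H2-T22 and H2-T23 together made up 24.4% to 32.8% in sham and 11.6% to 20.8% at 7 d.

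**Figure D4:**
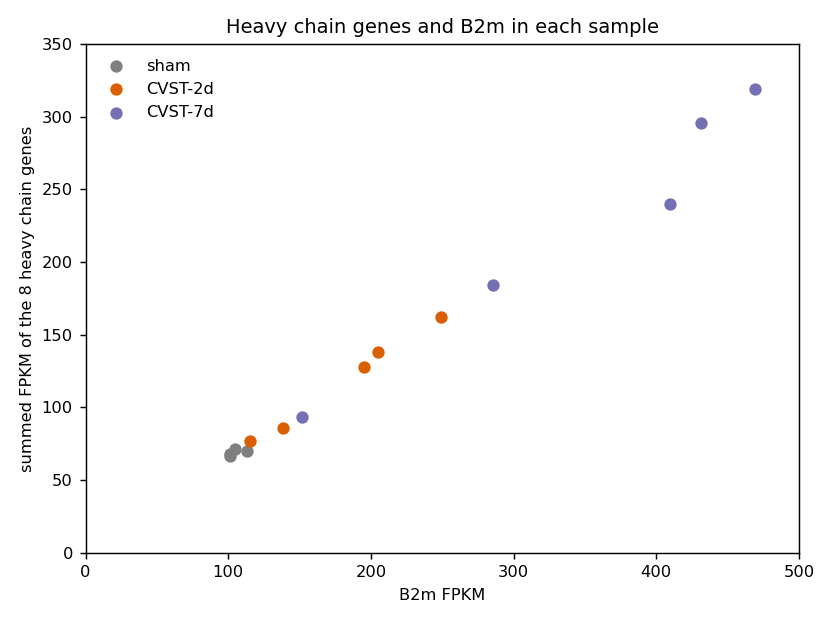
Summed FPKM of the 8 heavy chain genes (y axis) against B2m FPKM (x axis), 1 point per sample, both axes linear from 0. The summed level rises with B2m in all 3 groups, with a ratio of 0.585 to 0.686 at 7 d and 0.617 to 0.682 in sham, and CVST-7d sample 2 (B2m 151 FPKM) lies among the CVST-2d samples.

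Across the 14 samples, log2 CPM of H2-K1, H2-D1 and B2m had Pearson's r of 0.988 to 0.994 with each other, as a description over samples that share their group differences. After the group means were subtracted, r was 0.965 to 0.985, so the samples of a group that were high in 1 of the 3 genes were high in the others. H2-Q6 and H2-T23 were the least alike pair (r = 0.539, and 0.234 after the group means). The genes outside the members whose log2 CPM was most like the members' mean z-score over the 14 samples were Cd22, an inhibitory lectin receptor (r = 0.966), the interferon-inducible Trim30a (0.965), the oligoadenylate synthetase Oas1a (0.959), the lectin receptor Clec7a (0.958), Mpeg1, a pore protein of phagocytes (0.954), the lysozyme Lyz2 (0.951), Uba7, the activating enzyme of the ubiquitin-like protein ISG15 (0.949), Unc93b1, a chaperone of endosomal Toll-like receptors (0.948), the interleukin 10 receptor chain Il10ra (0.948) and Lgals3bp (0.948). Lyz2 went from a mean of 6.79 CPM in sham to 564 CPM at 7 d, which included 1775 CPM in CVST-7d sample 5, and Trim30a from 2.52 to 11.2 CPM.

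Genes that supply peptides were described with a list of 18, of which 17 were tested. At 7 d 6 of 17 were higher and none lower, and the list's median log2 fold change was 0.19. Over all genes 3.61% were called higher and 0.833% lower at 7 d, and 2.98% higher at 2 d. This list and those below were chosen with earlier results of these data known. The transporter subunits Tap1 (2.24 CPM in sham and 8.70 at 7 d, log2 fold change 1.96 ± 0.36, SE) and Tap2 (0.82 ± 0.20) rose, and so did Tapbp, the tapasin that bridges TAP and the heavy chain (0.76 ± 0.19), and Erap1, a peptidase that trims peptides in the endoplasmic reticulum (0.70 ± 0.15). The immunoproteasome subunits Psmb8 (1.99) and Psmb9 (2.17) completed the 6. Psmb10, also an immunoproteasome subunit, did not rise (0.0035 ± 0.16, SE, adjusted p = 0.995 by edgeR), and Psme1 (0.19) and Psme2 (0.24) were not called. At 2 d 3 of 17 were higher, Tap1 (1.36 ± 0.35, SE, adjusted p = 0.0454 by edgeR), Erap1 (0.77 ± 0.15, adjusted p = 0.0154) and Psmb8 (1.54, adjusted p = 0.0462).

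Regulators of class I transcription had 7 of 28 tested genes higher at 7 d and 4 at 2 d, with none lower than sham. Over all genes 3.61% were called higher at 7 d and 2.98% at 2 d. The list's median was 0.37 at 7 d. Nlrc5, the transactivator of class I promoters, rose from 0.609 CPM in sham to 2.70 at 2 d and 4.19 at 7 d (log2 fold change 2.13 ± 0.53 and 2.76 ± 0.53, SE). Irf9 was also higher at both times (1.11 and 0.92), Irf7 (2.29), Irf8 (2.05), Irf1 (0.82) and the interferon gamma receptor chain Ifngr1 (0.89) at 7 d. Stat3 followed another course, with 46.9 CPM in sham, 117 at 2 d and 60.8 at 7 d, and was lower at 7 d than at 2 d (-0.95 ± 0.18, SE, adjusted p = 0.0165 by edgeR). The interferon genes Ifng and Ifnb1 had 0 counts in all 14 libraries.

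Class I relatives outside the members had 12 of 25 genes in the table that passed the filter. Of these, Hfe, a class I-like regulator of iron uptake, was higher at both times (log2 fold change 1.05 ± 0.24 at 2 d and 1.28 ± 0.24 at 7 d, SE). Mr1, which presents vitamin B metabolites to T cells, was higher at 7 d than at 2 d (1.01 ± 0.24, adjusted p = 0.0409 by edgeR). Fcgrt, the neonatal Fc receptor heavy chain, and H2-T24 measured 0.54 ± 0.22 and 0.49 ± 0.23 at 7 d (SE, adjusted p = 0.174 and 0.259). The list's median log2 fold change was -0.04 at 2 d and 0.52 at 7 d.

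Of 18 genes in the table from a list of class I receptors and their relatives, 3 passed the filter. Lilrb4a, an inhibitory myeloid receptor, was listed by its family, and binding of class I by Lilrb4a itself is not shown here. It rose from 0.296 CPM in sham to 6.35 at 2 d and 6.56 at 7 d. Pirb, a paired immunoglobulin-like receptor for class I, rose from 0.459 CPM in sham to 5.65 at 7 d (log2 fold change 3.61 ± 0.81, SE). Lilrb4a and Pirb were low in sham and passed the filter through their CVST samples, where they were high. Cd160 measured 0.29 ± 0.32 at 7 d (adjusted p = 0.669). Cd8a, the co-receptor of CD8 T cells, had 1 count in all sham libraries together, 6 at 2 d and 19 at 7 d, 11 of them in CVST-7d sample 4, whereas its partner chain Cd8b1 had 2, 7 and 2 counts. MHC class II genes had 4 of 7 tested higher at 7 d (Cd74, H2-Aa, H2-Eb1 and H2-DMb1, log2 fold change 1.70 to 2.91) and 0 of 7 at 2 d by edgeR (1 at an unadjusted p under 0.05). The shares of all genes called higher were 3.61% at 7 d and 2.98% at 2 d.

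**Figure D5:**
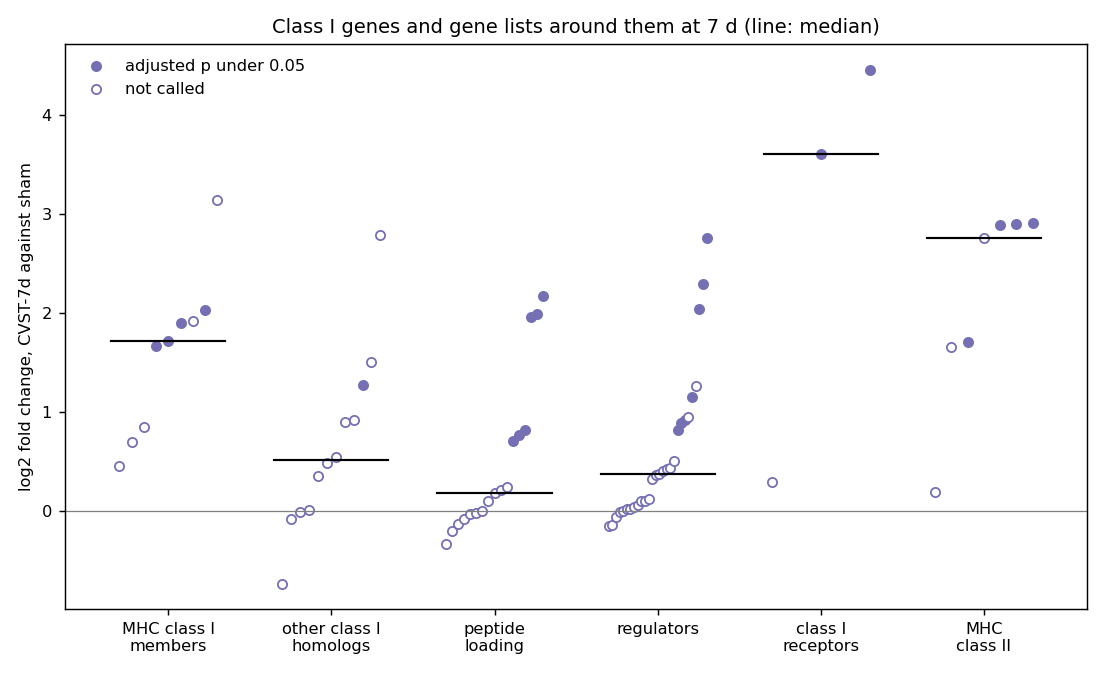
Log2 fold change of CVST-7d against sham (y axis) for the tested genes of the class I members and of 5 gene lists, 1 point per gene, filled at adjusted p under 0.05, with a line at the median. The medians are 1.72 for the class I genes, 0.52 for other class I homologs, 0.19 for peptide loading, 0.37 for regulators, 3.61 for the 3 tested genes of the class I receptor list and 2.75 for class II.

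Part of the markers of microglia and of monocytes and macrophages were higher at 7 d, and those of endothelium and of T and NK cells had 0 called at 7 d. For all cell types the shares to set beside are those of all genes called higher, 3.61% at 7 d and 2.98% at 2 d. Among the 12 microglia markers, 10 log2 fold changes were above 0 at 2 d and 12 at 7 d. Of 12 microglia markers 7 were higher at 7 d and 3 at 2 d, and their summed level was 393 to 445 CPM in sham, 459 to 1113 at 2 d and 549 to 1854 at 7 d, with none at 0. Of 10 tested markers of monocytes and macrophages 4 were higher at 7 d and none at 2 d by edgeR (7 at an unadjusted p under 0.05), with sums of 76.0 to 91.5, 126 to 456 and 104 to 2505 CPM. CVST-7d sample 2 was lowest and sample 4 or 5 highest in both sums. In CVST-2d samples 1 to 5 the microglia sums were 891, 1113, 772, 773 and 459 CPM. H2-K1 measured 42.8, 52.0, 41.9, 29.4 and 25.8 CPM in the same samples. Sample 2 was highest and sample 5 lowest in both, while samples 3 and 4 had near-equal sums and different H2-K1 levels. The part of microglia, monocytes and macrophages in the class I differences was not tested. Of 12 markers of blood-brain barrier endothelium 2 were higher at 2 d and 0 at 7 d by edgeR (1 at an unadjusted p under 0.05), with sums of 346 to 465, 438 to 634 and 374 to 538 CPM. T and NK cell markers had 3 of 13 past the filter and 0 called by edgeR at either time (0 at an unadjusted p under 0.05), with sums of 2.25 to 17.7, 2.20 to 14.1 and 2.22 to 16.3 CPM. Their defining genes had few counts in sham, CVST-2d and CVST-7d libraries together: 5, 1 and 7 for Cd3e, 0, 1 and 5 for Cd3d, and 3, 7 and 6 for Cd3g. The NK and cytotoxic cell genes Klrd1 (4, 7 and 23), Klrk1 (2, 15 and 22), Nkg7 (0, 3 and 11) and Gzma (0, 2 and 10) had more counts at 7 d, with no test at these low counts. Ncr1 (0, 2 and 2) and Cd2 (2, 6 and 6) had no more at 7 d than at 2 d. The totals are over 4 sham libraries and 5 in each CVST group. At 7 d Klrd1 ran from 0 to 11 counts per library and Klrk1 from 0 to 8.

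Astrocyte markers had 2 of 10 higher at each time, among them the reactive astrocyte gene Gfap (log2 fold change 2.76 at 7 d), with sums of 2944 to 3810 CPM in sham and 3912 to 7462 at 7 d. Neurons (10 markers, median log2 fold change -0.05) and oligodendrocytes (8 markers, 0.18) had 0 called at 7 d by edgeR and 0 at an unadjusted p under 0.05. B cells (2 of 6 markers tested) and neutrophils (2 of 8) had 0 called at 7 d by edgeR, with 1 and 0 at an unadjusted p under 0.05. Their sums were 28.3 to 67.2 and 0.0634 to 1.10 CPM at 7 d, against 14.7 to 43.6 and 0.242 to 2.76 CPM in sham, and the neutrophil gene Elane was at 0 in all libraries.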

How the data were processed

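The authors deposited read counts per gene and FPKM for 14 cortex samples. Per the submitters' processing notes, fastp, HISAT2 and DESeq2 1.16.1 and build mm39 were used. The tools' roles, the counting tool, the read length and the handling of reads matching several genes count as not given in the sources used here. H2-D1, H2-Q4, H2-Q6 and H2-T22 are loci of an assembled transcriptome tied to an Ensembl gene. The 535 entries without an Ensembl gene (0.203% to 0.278% of counts) were left out. One edgeR 4.0.16 fit held all samples (R 4.3.3): TMM scaling, filterByExpr, group means, the quasi-likelihood test, 2-sided, Benjamini-Hochberg over 16918 genes, called at adjusted p under 0.05. The SE is the log2 fold change over the root of F. Intervals and floors (3 counts) cover counting error only, since PCR copies cannot be told from separate molecules. Replicates differed by more than sampling noise (chi-square per degree of freedom of at least 8.29), and no batch is given in the labels. The edgeR fit was tested on simulated data. Alternatives used DESeq2 1.42.0 and limma 3.58.1 on log2(FPKM + 0.1). Members and lists were chosen with earlier results of these data known. Named list genes are the up to 4 per list of highest mean CPM among those called in any comparison, then by mean CPM. Psmb8, Psmb9, Psmb10, Psme1, Psme2, Nlrc5, Irf7, Irf8, Irf1, H2-Q1, H2-Q2, Gfap, Gja1, Slc1a2, Slc4a4, Slc1a3, Cd4, Cd8a, Cd8b1, Cd3e, Cd3d, Cd3g, Cd2, Klrd1, Klrk1, Ncr1, Nkg7, Gzma, Elane, Ifng and Ifnb1 were added after their values were seen. Likeness is Pearson's r with the members' mean z-score, 10 genes named. Promoters are RefSeq's (GRCm38.p6), a build other than the authors', and the motifs searched were chosen after the data were seen. Shared words come from GENCODE M21 transcripts, either strand. The values of 1 gene of the regulator list, which is included in the list's counts, are not reported here.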

Additional observations from a re-analysis of the deposited data

Results flagged for a closer look

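In groups of 4 or 5 samples, 1 sample lay far from the rest in 10 of 150 sets of values examined, where chance gives about 1 in 20; none of the 9 class I genes was among them. CVST-2d sample 2 was far above the other CVST-2d samples in H2-Aa (7.69 CPM, others 0.637 to 2.49), H2-Eb1 (7.31 CPM, others 0.463 to 2.30), Clec7a (3.75 CPM, others 0.405 to 1.37), Lyz2 (136 CPM, others 12.2 to 42.2) and the summed monocyte and macrophage markers (456 CPM, others 126 to 208). CVST-7d sample 5 was far above the other CVST-7d samples in Lyz2 (1775 CPM, others 13 to 515), the monocyte and macrophage sum (2505 CPM, others 104 to 663) and the T and NK cell sum (16.3 CPM, others 2.22 to 4.47). The T and NK cell sum was also high in CVST-2d sample 5 (14.1 CPM, others 2.20 to 4.54). Cd4 carried most of it, with 10 to 279 counts per library and high values in sham as well. The astrocyte sum was high in CVST-7d sample 4 (7462 CPM, others 3912 to 4886).

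The effects at 2 d and 7 d differed by the edgeR test of CVST-7d against CVST-2d in named genes outside the members. The log2 difference was 1.01 for Mr1 and -0.95 for Stat3. Among the 10 genes named for their likeness to the members over these samples, it was 2.59 for Cd22, 3.78 for Clec7a, 1.12 for Uba7 and 1.24 for Lgals3bp. No class I member passed this test.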

How the results depend on the processing

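With DESeq2 in place of edgeR the genes called were 1528 at 2 d, 1386 at 7 d and 1280 between the times (669, 752 and 473 by edgeR), and the members called 3, 8 and 4 (0, 4 and 0). Limma on log2(FPKM + 0.1) called 415, 413 and 239 genes. Without a filter on low counts 1 member, H2-K1, was called between the times. Leaving out each library in turn gave 79 to 2000, 121 to 1030 and 175 to 1315 genes and 0 to 2, 4 to 7 and 0 to 4 members. The 2000 came without CVST-2d sample 5 and the 79 without sham sample 3; the 7 members, and the 4 between the times, came without CVST-7d sample 2. Without CVST-2d sample 2 the 2 d log2 fold change reversed for H2-Q7 (-0.32, adjusted p = 0.778 by edgeR) and H2-M3 (-0.060, adjusted p = 0.94); with 1 library left out they ranged from -0.32 to 0.65 and from -0.060 to 0.25. Of the single-member values under alternatives 479 kept direction and side of the threshold, 28 newly passed, 4 no longer passed and 2 reversed. With DESeq2 size factors no member changed its call or direction.

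With the replicate number as a block 315, 81 and 91 genes and 0 members at each time were called, and the 4 members called at 7 d no longer passed (adjusted p = 0.0554 to 0.0669 by edgeR), with log2 fold changes of 1.87 for H2-K1, 1.99 for H2-D1, 1.79 for H2-Q4 and 1.68 for B2m. The share of higher genes among those called at 7 d went from 81.2% to 67.9%. The labels do not say whether the numbers pair the samples. Of 13 same-numbered pairs 2 had a correlation of deviations over 0.1 (-0.438 to 0.28), and 2 of 14 samples correlated best with their own number. These correlations cannot decide whether same-numbered samples were handled together, since spread between samples can hide a shared effect. H2-Q6 rested on 0 to 67 counts per library.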
